A study of Mus musculus with 6 samples.

Results

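ABC transporters are membrane proteins with a shared ATP-binding cassette, and their genes carry the symbols Abca to Abcg, 1 letter for each subfamily. The genes described here are all rows of the count table whose symbol is Abca to Abcg followed by a number and at most 1 letter, chosen by name alone. There are 50 of them among 24411 symbols. Microglia, macrophages that live in the brain, were purified from C57BL/6J mice aged 8 weeks, and their total RNA was sequenced. The 6 libraries are 3 from Mir137 knockout mice (gKO) and 3 from Mir137 wild-type mice (gWT). The comparison addresses the transcripts that differ between libraries with and without this microRNA gene. The groups also differ in Xist, as given below. All 6 share strain, age, tissue and cell type, and the labels name no treatment, no sex and no further allele. The study names 4 mice without tying them to libraries. Whether replicates are different animals is thus unknown, and the p-values rest on a spread among libraries that may be technical.

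ABC proteins use ATP to move lipids, sterols, peptides, metal-bound cofactors, conjugates and drugs across membranes. A full transporter is a single polypeptide, smaller members work as dimers, and the E and F subfamilies lack membrane spans and act on ribosomes. In macrophages, Abca1 and Abcg1 export cholesterol under the control of liver X receptors (LXR). In brain endothelium, Abcb1a and Abcg2 pump drugs back into the blood. Members of the superfamily with other symbols, such as the peptide transporter subunits Tap1 and Tap2 and the chloride channel Cftr, fall outside the naming rule.

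The libraries held 14603884 to 17652976 counts. gKO replicate 3 stood apart: its first principal component score was 91.5, beside -37.7 to -3.45 in the other 5. Its deviations per gene had a Spearman correlation of -0.50 with transcript length (across genes, which are not independent replicates). The main results are therefore given with and without it. Every fit without it rests on gKO n = 2 and gWT n = 3. The 12 microglial markers summed to 41560.3 to 44168 CPM (read counts relative to the library total, scaled by the TMM method) in gKO and 40928 to 44121 CPM in gWT, with 0 of them at 0. Of these, edgeR called 1 higher (Slc2a5) and 0 lower, and 2 higher and 3 lower without gKO replicate 3. The Mir137 precursor had 0 counts in all 6 libraries, so it checks nothing about the labels. Xist, the RNA of the inactive X chromosome, was counted 2519, 2000 and 1830 times in the gWT libraries, beside 0, 0 and 8 times in the gKO libraries. This difference runs with genotype in every library, and what goes with it cannot be told apart from genotype in any result.

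The removed microRNA and its matches in the ABC genes are shown first, since they are the sequences through which it could pair with these transcripts. Capitals mark the seed, bases 2 to 8 of the mature microRNA (RefSeq, GRCm38.p6, chr3:118433901-118433923, strand +).
mmu-miR-137-3p: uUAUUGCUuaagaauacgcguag
The reverse complement of the seed, AGCAATA, stands once in the longest annotated 3′ UTR (GENCODE M21, GRCm38) of 4 of the 50 genes, all of which passed the filter on low counts. The sites are printed in the transcript's direction with the match in capitals and the coordinates of the match.
Abcc9, chr6:142588301-142588307, strand -: taactataaaaAGCAATAaatgcaaacaa
Abcc1, chr16:14460902-14460908, strand +: ttgcaaggtgcAGCAATAtttggctactc
Abcd2, chr15:91146927-91146933, strand -: accttacatgaAGCAATAcaatatgaggt
Abce1, chr8:79683963-79683969, strand -: tgcagggaaatAGCAATAcaaagtgtcca
The share of tested genes with a match was 11.1% among the ABC genes (4 of 36) and 10.8% among all tested protein-coding genes with a 3′ UTR (1398 of 12960). The Abcc9 match is the only one of the 4 that is followed by an A, at base 2235 of a 2680-base UTR. None of the 4 genes was called: the log2 fold changes of gKO over gWT were -0.60 (SE 0.33) for Abcc9, -0.13 (SE 0.28) for Abcc1, 0.03 (SE 0.12) for Abcd2 and 0.01 (SE 0.16) for Abce1. A match is a description of the sequence and not evidence of pairing.

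Of the 50 genes, 36 passed the filter on low counts and 14 did not. The 14 hold 7 genes with 0 counts in every library: the keratinocyte lipid transporter Abca12, the Abca15 and Abca16 genes of a chromosome 7 cluster, Abcb5, the bile salt pump Abcb11, Abcc12, and the sterol transporter subunit Abcg8. The other 7 (Abca8b, Abca14, Abca17, Abcc2, Abcc8, Abcg4 and Abcg5) had at most 12 counts in any library, apart from Abcg4 with 28 counts in gKO replicate 1. For a gene with 0 counts, the depth allows up to 3 counts in each library.

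Levels of different genes can be compared only per length, here as CPM per kb of the longest annotated transcript. In gWT the most abundant was Abca9, a lipid transporter of the chromosome 11 Abca cluster, at 106 ± 4.81 CPM per kb (SD, n = 3). Abcc3, which exports organic anions and conjugates, followed at 88.1 ± 0.06 CPM per kb, and the cholesterol exporter Abca1 at 65.9 ± 2.89 CPM per kb (SD, n = 3 each). These levels lay further apart than their spread. Lower levels included the sterol exporter Abcg1 at 38 ± 2.28 CPM per kb and the translation factor Abcf1 at 32.8 ± 1.14 CPM per kb (SD, n = 3 each). At the low end, Abca13 had 0.183 ± 0.0121 CPM per kb and Abca6 0.200 ± 0.0279 CPM per kb. In gKO the same 3 genes led, but with a wider spread: 97.8 ± 42.7 CPM per kb for Abca9, 79.4 ± 27.8 CPM per kb for Abcc3 and 66.7 ± 11 CPM per kb for Abca1 (SD, n = 3 each), which do not differ beyond it. Summed over members, subfamily A held 225 CPM per kb in gWT and 208 in gKO, and subfamily C 122 and 109.

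**Figure D1:**
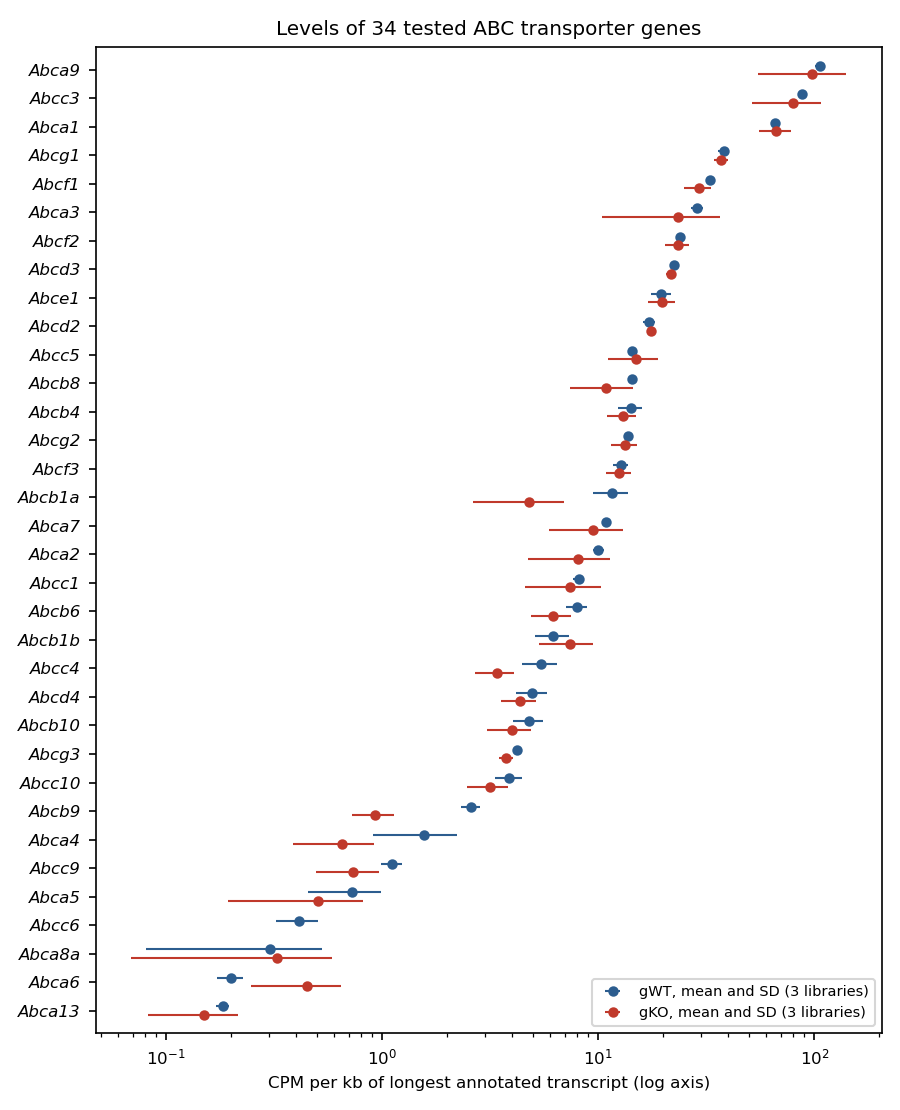
Level of 34 tested ABC transporter genes, in CPM per kb of the longest annotated transcript on a log axis, as mean and SD over 3 libraries for gWT (blue) and gKO (red). Abca9, Abcc3 and Abca1 lead in both genotypes, and Abcc6 has no gKO point because it was 0 in all 3 gKO libraries.

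Between the genotypes, 0 of the 36 tested ABC genes were called with all 6 libraries (quasi-likelihood test of edgeR, p under 0.05 after Benjamini-Hochberg adjustment), where 0.627% of all 13403 tested genes were called. At an unadjusted p under 0.05, 5 were lower in gKO and 0 higher: Abcc6, Abcb9, Abcb1a, Abca4 and Abcc4. Among all tested genes 5.74% were lower and 5.16% higher by this rule. Abcc6 passed the filter through gWT alone and so had to differ, and the other 35 genes held 4 of the 5. Without gKO replicate 3, the same rule gave 5 lower and 4 higher (Abca1, Abca9, Abcb1b and Abcc5), beside 12.3% lower and 10.8% higher among all genes. After adjustment, edgeR called 3 genes lower in that fit, Abcb1a, Abcb9 and Abcc6, and 0 higher. Among all genes it called 3.82% lower and 3.99% higher. Abcc6 had to differ in this fit as well, and Abcb1a and Abcb9 were the calls among the other 35 genes. DESeq2 on 6 libraries called the same 3 genes lower (1.40% lower and 1.06% higher among all genes), and limma-voom called 0 (0.634% of all genes in either direction). The same 3 are the ABC genes among the 201 lower genes in the authors' deposited table, and 0 are among its 75 higher genes. That table rests on these same libraries and, per the submitters' notes, on DESeq2, so it is not a separate source. No share over all tested genes is given for it.

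The fold change was below 0 in 28 of the 36 genes, beside 49.1% of all tested genes. Its median was -0.16 on the log2 scale, beside 0.01 for all tested genes, and is the same with Abcc6 set at the bound given for it. Without gKO replicate 3, it was below 0 in 20 of the 36, with a median of -0.03 beside -0.02. The groups did not overlap in 8 genes, beside 21.3% of all tested genes, and in 7 of them gKO was lower, beside 11.3%. Abcc6, which had to differ, is among the 7. By subfamily, 7 of 10 tested A genes, 6 of 8 B genes, 6 of 7 C genes, 3 of 4 D genes, 0 of 1 E genes, 3 of 3 F genes and 3 of 3 G genes were below 0. The 5 genes with an unadjusted p under 0.05 all belong to subfamilies A (1), B (2) and C (2), a difference between subfamilies that was not tested.

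**Figure D2:**
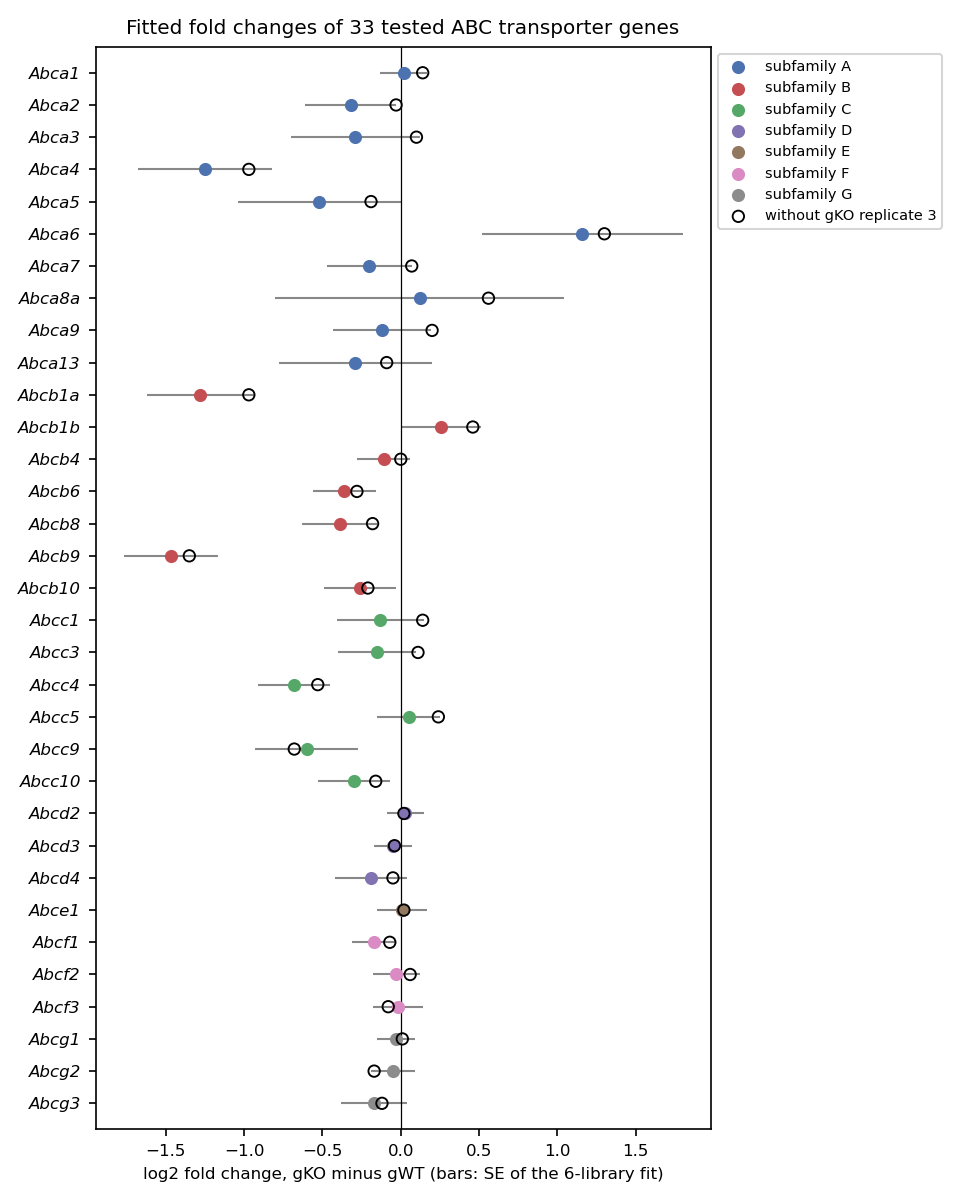
Fitted log2 fold change of gKO over gWT for 33 tested ABC genes, coloured by subfamily, with bars for the SE of the fit with 6 libraries and open circles for the fit without gKO replicate 3. Abcc6 is left out because it was 0 in all gKO libraries; Abcb9, Abcb1a and Abca4 lie lowest, and most subfamily A open circles lie to the right of the filled ones.

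Among the full multidrug transporters of subfamily B, Abcb1a and Abcb1b encode the rodent P-glycoproteins, and Abcb4 a phosphatidylcholine floppase. The genes adjoin on chromosome 5. Abcb1a (chr5:8660077-8748575, strand +) had 26.9, 33.0 and 11.9 in gKO replicates 1, 2 and 3, against 70.6, 51.1 and 52.4 CPM in gWT replicates 1, 2 and 3. Every gKO library lay below every gWT library. The mean was 23.9 ± 10.9 in gKO against 58.0 ± 10.9 CPM in gWT (SD, n = 3 each), a log2 fold change of -1.28 (standard error 0.34, adjusted p = 0.197 by edgeR), or 2.42-fold lower. Without gKO replicate 3 (gKO n = 2, gWT n = 3), it fell by 0.97 on the log2 scale (standard error 0.16, adjusted p = 0.00245 by edgeR). Abcb1b (chr5:8798147-8866315, strand +) had 39.9, 33.6 and 22.1 in gKO against 26.6, 31.4 and 21.8 CPM in gWT, with overlapping groups and a log2 fold change of 0.26 (standard error 0.25, adjusted p = 0.776 by edgeR). That value was 0.46 (standard error 0.17, adjusted p = 0.121 by edgeR) without gKO replicate 3 and 0.06 without gKO replicate 1. Abcb4 had 53.1 ± 8.14 in gKO against 57.4 ± 7.32 CPM in gWT (SD, n = 3 each), which differed by less than the spread between libraries. Unclassified transcripts (Gm42684 and Gm42686) overlap Abcb1a, and an antisense gene (Gm5106) overlaps Abcb1b.

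Abcb1a and Abcb1b are related neighbouring genes, and their deposited counts were not whole numbers in any of the 6 libraries. The sum of the pair was whole in all 6, at the decimals kept. Reads were thus divided between them by estimation, and each gene's value is uncertain to that extent. Abcb1a made up 40.3%, 49.5% and 35% of the pair's level in gKO against 72.6%, 62.0% and 70.6% in gWT, again without overlap. An exact two-sided permutation test of this share gave p = 0.1, the smallest that 3 libraries against 3 allow. Groups without overlap always give this value, so the test adds nothing to the separation. The share was not a planned measure. The pair summed to 66.8, 66.6 and 33.9 in gKO against 97.3, 82.5 and 74.2 CPM in gWT. Fitted as 1 gene, a choice made after seeing the data, the sum had a log2 fold change of -0.60 (standard error 0.26, adjusted p = 0.455 by edgeR), and -0.35 (standard error 0.12, adjusted p = 0.0849 by edgeR) without gKO replicate 3.

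Abcg2, the breast cancer resistance protein, shares the endothelial barrier with Abcb1a. It had 68.3, 71.8 and 88.0 in gKO against 78.1, 81.2 and 76.1 CPM in gWT, with overlapping groups (log2 fold change -0.05, standard error 0.14, adjusted p = 0.943 by edgeR, and -0.17, SE 0.10, without gKO replicate 3). Of 15 endothelial markers, edgeR called 1 lower and 0 higher (12 at an unadjusted p under 0.05), with a median of -0.89. It called 12 of the 15 lower without gKO replicate 3. Their summed level was 711 to 913 in gKO against 1398 to 1805 CPM in gWT, and 0 of the 15 were at 0. Per 100 CPM of these markers, Abcb1a stood at 3.04, 3.61 and 1.67 in gKO against 3.91, 3.65 and 3.68 CPM in gWT. On this scale gKO replicate 2 (3.61) lay next to the lowest gWT value (3.65), so the genotypes were barely separate. The lowest gKO value, 1.67, was that of gKO replicate 3, which stood apart, and gKO replicate 1 lay at 3.04. Abcg2 stood at 7.72, 7.86 and 12.4 in gKO against 4.33, 5.80 and 5.35 CPM in gWT. Fewer cells of a type and less RNA per cell cannot be told apart in such bulk samples, and the part of endothelial RNA in the Abcb1a difference was not tested.

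**Figure D3:**
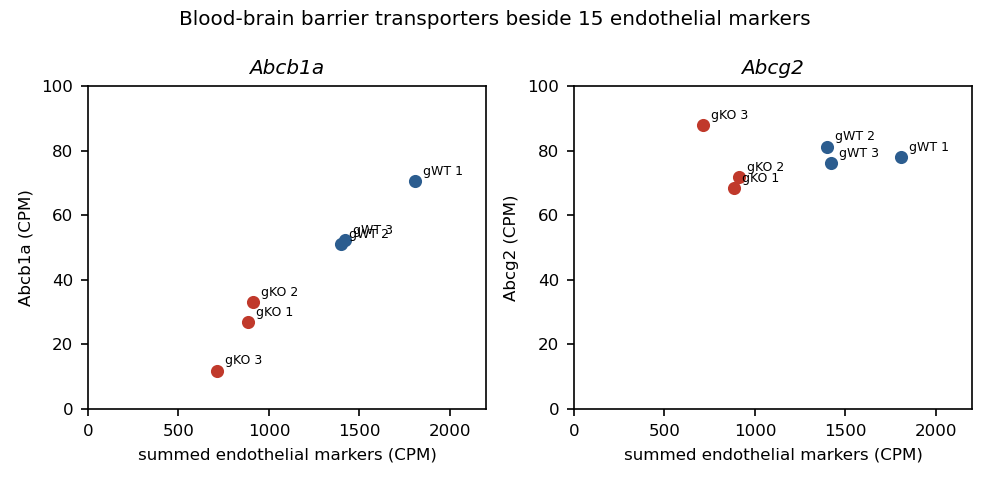
Abcb1a and Abcg2 CPM in each of the 6 libraries (gWT blue, gKO red) against the summed CPM of 15 endothelial markers. The gKO libraries lie at 711 to 913 CPM of the markers and the gWT libraries at 1398 to 1805 CPM; Abcb1a is lower in the gKO libraries, and Abcg2 overlaps between the genotypes.

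The promoters of Abcb1a and Abcb1b are printed because these neighbouring copies had different values, and that of Abcb9 because it is the other B gene with separated groups. They run from 250 bases before to 50 after the annotated start (RefSeq, GRCm38.p6). Capitals mark the CCAAT box (CCAAT) and the GC box (GGGCGG), on either strand.
Abcb1a, chr5:8566841-8567140, strand +: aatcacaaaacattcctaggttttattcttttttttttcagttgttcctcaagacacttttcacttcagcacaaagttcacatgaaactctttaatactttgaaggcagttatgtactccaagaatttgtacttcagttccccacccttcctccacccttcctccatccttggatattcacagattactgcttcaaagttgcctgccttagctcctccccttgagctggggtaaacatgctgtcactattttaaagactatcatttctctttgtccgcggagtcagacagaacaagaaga
Abcb1b, chr5:8797897-8798196, strand +: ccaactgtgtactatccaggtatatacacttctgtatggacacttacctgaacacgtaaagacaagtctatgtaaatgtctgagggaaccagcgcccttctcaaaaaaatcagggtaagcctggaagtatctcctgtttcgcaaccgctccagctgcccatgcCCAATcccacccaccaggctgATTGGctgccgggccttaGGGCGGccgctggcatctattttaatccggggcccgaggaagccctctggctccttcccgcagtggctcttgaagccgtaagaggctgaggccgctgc
Abcb9, chr5:124095749-124096048, strand -: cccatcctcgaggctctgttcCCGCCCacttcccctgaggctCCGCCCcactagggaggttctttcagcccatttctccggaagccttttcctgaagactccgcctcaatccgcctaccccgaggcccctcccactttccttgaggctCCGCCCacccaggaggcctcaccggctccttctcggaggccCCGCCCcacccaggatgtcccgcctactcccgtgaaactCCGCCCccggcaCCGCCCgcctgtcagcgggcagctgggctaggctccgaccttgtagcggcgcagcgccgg
The Abcb1a window lies 92.9 kb upstream of the GENCODE start of the gene given above, while those of Abcb1b and Abcb9 hold the GENCODE start, so the windows of the pair are not at matching places in the gene models. Its promoter holds 0 matches of either motif and 40.3% G and C. The Abcb1b promoter holds 2 CCAAT boxes, 1 GC box and 55% G and C. The Abcb9 promoter holds 6 GC boxes, 0 CCAAT boxes and 68.7% G and C. Among all 32851 promoters of this length, 37.4% hold a CCAAT box, 35.7% a GC box and 1.35% at least 6 GC boxes. Of the 45 promoters listed for 38 ABC genes, 21 hold a GC box and 16 a CCAAT box. The TATA box (TATAAA) was found in 7 of the 45 and in 13.6% of all promoters. The AP-1 motif TGANTCA was found in 0 of the 45 and in 7.81% of all promoters. These shares were not tested.

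Abcb9 encodes a lysosomal peptide transporter that works as a dimer and is related to Tap1 and Tap2 (chr5:124061530-124095798, strand -). It had 4.24, 3.22 and 2.76 in gKO against 9.72, 10.3 and 8.38 CPM in gWT. Every gWT library lay above every gKO library, with means of 3.41 ± 0.757 and 9.46 ± 0.982 CPM (SD, n = 3 each). The log2 fold change was -1.47 (standard error 0.30, adjusted p = 0.102 by edgeR), a 2.77-fold difference, and Abcb9 fell by 1.35 on the log2 scale without gKO replicate 3 (standard error 0.32, adjusted p = 0.0213 by edgeR). A lincRNA, Gm34086, overlaps it on the other strand, and since no strand setting is stated, reads of both genes may be mixed. Of its relatives outside the naming rule, Tap1 had 78.3 to 85.4 in gKO against 95.9 to 112 CPM in gWT (log2 fold change -0.37, standard error 0.13, adjusted p = 0.327 by edgeR), and fell by 0.36 without gKO replicate 3 (edgeR adjusted p = 0.0336). Tap2 had a log2 fold change of -0.14 (SE 0.14), and Cftr 12 counts in gKO replicate 3 and 0 elsewhere. Of 9 peptide loading genes, edgeR called 0 (1 at an unadjusted p under 0.05), with a median of -0.11, and Tapbpl (-0.33) and B2m (0.34) had the next smallest p-values after Tap1.

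The mitochondrial transporters of subfamily B serve heme and iron-sulfur cluster metabolism. The porphyrin transporter Abcb6 had 20.4 to 29.1 in gKO against 26.5 to 33.1 CPM in gWT, and Abcb8 22.6 to 44.4 and 43.6 to 44.3 CPM. Their log2 fold changes were -0.36 (SE 0.20) and -0.39 (SE 0.24), and that of Abcb8 was -0.18 without gKO replicate 3 and -0.64 without gKO replicate 1. The heme-associated Abcb10 (-0.26, SE 0.23) had overlapping groups as well. Of 26 tested genes of heme and iron-sulfur assembly, edgeR called 0 (2 at an unadjusted p under 0.05), with a median of 0.04. The smallest p-values were those of the cluster assembly gene Isca1 (log2 fold change 0.62), the heme enzyme Cpox (-0.50) and ferrochelatase, Fech (0.27). Without gKO replicate 3, edgeR called 1 of these higher and 0 lower.

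In subfamily C, Abcc6, which supports ATP release and thereby limits tissue calcification (chr7:45967555-46030302, strand -), was not detected in gKO. It had 0 counts in each of the 3 gKO libraries and 39, 27 and 40 counts in gWT replicates 1, 2 and 3. The gWT level was 2.06 ± 0.449 CPM (SD, n = 3). With 3 counts allowed over the 3 gKO libraries together, the level was at least 31.7-fold lower in gKO, a bound that covers counting error only. Its edgeR adjusted p was 0.0985 with 6 libraries and 0.0152 without gKO replicate 3. In the authors' deposited table Abcc6 has an adjusted p of 8.31e-05. As Abcc6 passed the filter through gWT alone and so had to differ, these p-values are a description only. A pseudogene, Gm45674, overlaps it on the other strand.

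Abcc4, an exporter of cyclic nucleotides and prostaglandins, had 21.6, 21.8 and 14.8 in gKO against 36.8, 25.3 and 31.2 CPM in gWT. The groups did not overlap, with gKO replicate 3 the lowest of all. The log2 fold change was -0.68 (standard error 0.23, adjusted p = 0.319 by edgeR), and -0.53 (standard error 0.18, adjusted p = 0.0899 by edgeR) without gKO replicate 3. Abcc9, the sulfonylurea receptor subunit of ATP-sensitive potassium channels (KATP) in vascular muscle and pericytes, had 6.93, 3.50 and 6.01 in gKO against 8.66, 7.26 and 9.08 CPM in gWT (log2 fold change -0.60, standard error 0.33, adjusted p = 0.566 by edgeR). An antisense gene, 5330439B14Rik, overlaps it. Its channel partner Kcnj8 had 1.85 to 6.15 in gKO against 2.05 to 4.77 CPM in gWT, with overlapping groups, a log2 fold change of 0.32 (SE 0.54) and no call by edgeR. The other partner, Kcnj11, did not pass the filter on low counts.

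Abcc3, Abcc1 and Abcc5 differed between the genotypes by less than their SD in gKO. Abcc3 had 486, 469 and 237 in gKO against 441 CPM in each gWT library. gKO replicate 3 lay far below the rest and the other gKO libraries above gWT. The log2 fold change was -0.15 (SE 0.25) with it and 0.11 (standard error 0.06, adjusted p = 0.312 by edgeR) without it. Abcc1, an exporter of glutathione conjugates and leukotrienes, moved from -0.13 (SE 0.28) to 0.14 (SE 0.12) in the same way. Abcc5, an exporter of cyclic nucleotides, had 0.05 (SE 0.20) and the less abundant Abcc10, a transporter of conjugates, -0.30 (SE 0.23). Of 22 genes of glutathione synthesis and conjugation, edgeR called 0 (3 at an unadjusted p under 0.05), with a median of 0.06. Heme oxygenase, Hmox1, had a log2 fold change of 0.68 (standard error 0.15, adjusted p = 0.138 by edgeR) and rose by 0.54 without gKO replicate 3 (edgeR adjusted p = 0.00544). In that fit the conjugating enzyme gene Gsta4 (log2 fold change -0.95, edgeR adjusted p = 0.0352) and the peroxidase gene Gpx4 (-0.36, edgeR adjusted p = 0.0316) fell. They stood at -0.34 and -0.01 with all libraries, and are named here for being called. Gsto1 (0.72) and the oxidative stress regulator Nfe2l2 (0.38) came next to Hmox1 by p with all libraries.

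**Figure D4:**
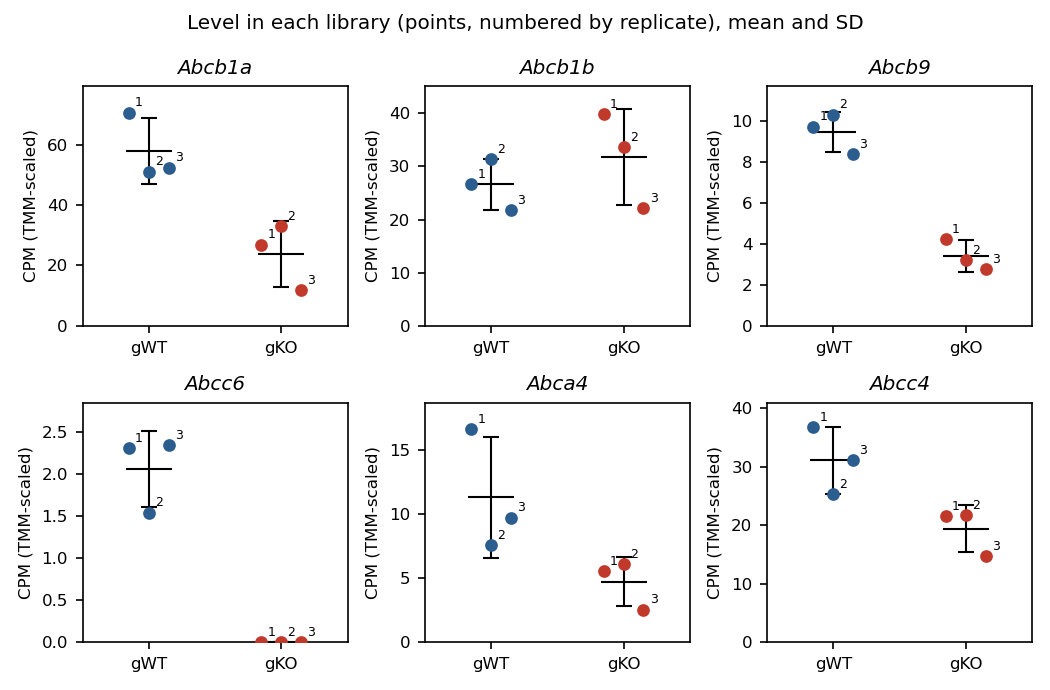
TMM-scaled CPM of 6 ABC genes in every library (points, numbered by replicate), with the mean and SD over 3 libraries of gWT (blue) and gKO (red). The groups are separate in Abcb1a, Abcb9, Abcc6, Abca4 and Abcc4 and overlap in Abcb1b; gKO replicate 3 is the lowest gKO library in each panel apart from Abcc6.

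Subfamily A holds lipid transporters. Abca1 had 753, 745 and 554 in gKO against 678, 646 and 705 CPM in gWT. gKO replicate 3 was the lowest library and the other gKO libraries the highest, so the groups overlapped (log2 fold change 0.02, SE 0.15). Abca9 had 742, 818 and 313 in gKO against 680.2, 644 and 706 CPM in gWT, and showed the same arrangement. Its log2 fold change was -0.12 (SE 0.31) with gKO replicate 3 and 0.20 (standard error 0.06, adjusted p = 0.0807 by edgeR) without it. The surfactant lipid transporter Abca3 had 202, 199.5 and 54.4 in gKO against 172 to 195 CPM in gWT, a log2 fold change of -0.29 (SE 0.41). Its counts were not whole in 4 of 6 libraries. Abca7, a phagocytosis gene linked to Alzheimer's disease risk, and the lysosomal Abca2 differed by -0.20 (SE 0.27) and -0.32 (SE 0.29) on the log2 scale, and by 0.07 and -0.03 without gKO replicate 3.

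Abca4, the retinoid flippase of photoreceptors (chr3:122044443-122180123, strand +), had 5.55, 6.10 and 2.55 in gKO against 16.6, 7.60 and 9.72 CPM in gWT. Pseudogenes (Gm43158 and Gm43157) overlap it on the other strand. The groups did not overlap, and gWT replicate 1 stood well above the rest. The log2 fold change was -1.25 (standard error 0.43, adjusted p = 0.328 by edgeR), and -0.97 (standard error 0.35, adjusted p = 0.105 by edgeR) without gKO replicate 3. Abca6, a neighbour of Abca9, was the 1 ABC gene with every gKO library above every gWT library: 3.55, 1.65 and 1.84 CPM against 1.12, 1.14 and 0.879 CPM (log2 fold change 1.16, standard error 0.64, adjusted p = 0.576 by edgeR). Its counts were 62, 24 and 26 in gKO and 15 to 20 in gWT. Abca5, Abca8a and Abca13 were low as well, with log2 fold changes of -0.52 (SE 0.52), 0.12 (SE 0.92) and -0.29 (SE 0.49) and overlapping groups.

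The sterol exporter Abcg1 (subfamily G) had 231, 219 and 199 in gKO against 212, 215 and 237 CPM in gWT, with overlapping groups (log2 fold change -0.03, standard error 0.12, adjusted p = 0.948 by edgeR). Of 20 tested genes of sterol efflux and LXR signalling, edgeR called 0 (2 at an unadjusted p under 0.05), with a median of -0.09. The LXR target Mylip, which degrades lipoprotein receptors, had a log2 fold change of 0.35 (SE 0.12), and the phospholipid transfer gene Pltp -0.48 (SE 0.16). Without gKO replicate 3, 3 of the list rose and 2 fell, Mylip (edgeR adjusted p = 0.00957) and Pltp (edgeR adjusted p = 0.0391) among them. The esterase gene Nceh1 had 0.25 (SE 0.14). Abcg3, a rodent member, had 10.4 to 12.1 in gKO against 12.5 to 13.1 CPM in gWT, a small separation with a log2 fold change of -0.17 (SE 0.21).

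The peroxisomal and lysosomal D genes and the ribosomal E and F genes had overlapping groups throughout. Abcd2, a peroxisomal fatty acid importer, had 96.1, 97.8 and 97.7 in gKO against 91.3, 92.4 and 101 CPM in gWT, among the most even of all (0.03, SE 0.12). Abcd3, the major peroxisomal membrane transporter, had -0.05 (SE 0.12) and the lysosomal cobalamin transporter Abcd4 -0.19 (SE 0.23). Of 28 tested genes of peroxisomal oxidation and biogenesis and 9 of cobalamin handling, edgeR called 0 in each, with 1 and 0 at an unadjusted p under 0.05 and medians of 0.00 and -0.03. The smallest p-values were those of the peroxins Pex2 (0.52) and Pex13 (0.39) and the acyl-CoA synthetase Acsl1 (0.24), and of Mmadhc (0.48), the cobalamin receptor Cd320 (-0.32) and methionine synthase, Mtr (-0.27). Without gKO replicate 3, edgeR called 0 genes in both lists.

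Abce1, which splits ribosomes after termination, had 64.8 to 86.6 in gKO against 66.6 to 82.8 CPM in gWT (log2 fold change 0.01, SE 0.16). The translation regulators Abcf1, Abcf2 and Abcf3 had -0.17 (SE 0.14), -0.03 (SE 0.15) and -0.02 (SE 0.16). Of 18 tested partners in ribosome recycling and initiation, edgeR called 0 (1 at an unadjusted p under 0.05), with a median of 0.07 and Eif3j2 (0.47), Mcts1 (0.69) and Eif1a (0.46) first by p.

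Of 16 solute carriers of the blood-brain barrier, edgeR called 0 (8 at an unadjusted p under 0.05), with a median of -0.46, and without gKO replicate 3 it called 3 lower. This list shares Slc2a1 and Slco1a4 with the endothelial markers, so the lists are not separate observations. The monocarboxylate carrier Slc16a1 had a log2 fold change of -0.79 (standard error 0.14, adjusted p = 0.0602 by edgeR), the glucose carrier Slc2a1 -0.58 (SE 0.12) and the anion carrier Slco1a4 -0.79 (SE 0.20), and these 3 had edgeR adjusted p-values of 0.000535, 0.00081 and 0.0103 without gKO replicate 3. Beside Abcc9, 13 mural markers summed to 157 ± 37.8 in gKO against 319 ± 63.0 CPM in gWT (SD, n = 3 each), without overlap. Perivascular and meningeal fibroblast markers (12 genes) summed to 264 to 305 in gKO against 488 to 690.2 CPM in gWT. Beside Abca4, 10 markers of choroid plexus and ependyma summed to 1525, 1180.1 and 3226 in gKO against 3447, 2033 and 1984 CPM in gWT, and overlapped. Of these markers edgeR called 1 mural and 4 fibroblast genes lower and 0 of the choroid genes, with medians of -1.19, -1.20 and -0.79. The fit without gKO replicate 3 called 6 mural, 6 fibroblast and 2 choroid genes lower. In these data 0 markers of the 3 lists were at 0. Their part in the ABC values was not tested.

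Of 12 neutrophil markers edgeR called 2 higher in gKO and 0 lower, with a summed level of 582 to 1079.7 CPM beside 292 to 366 CPM in gWT. It called 7 of them higher without gKO replicate 3. Summed levels in gKO and gWT were 567 to 822 and 844 to 1068 CPM for 9 monocyte genes (2 of them called higher and 0 lower, with a positive median of 0.75), 1624 to 1734 and 1541 to 1596 CPM for 9 border macrophage genes, and 282 to 323 and 396 to 445 CPM for 12 astrocyte genes. The monocyte list holds Fn1, at 277 ± 119.8 and 552 ± 117 CPM (SD, n = 3 each). The sums were 387 to 452 and 352 to 366 CPM for 10 oligodendrocyte genes, 23.7 to 32.8 and 36.6 to 51.4 CPM for 8 precursor genes, 18.9 to 22.4 and 18.2 to 27.0 CPM for 10 neuronal genes, and 70.8 ± 54.4 and 88.7 ± 11.1 CPM (SD, n = 3 each) for 7 erythroid genes, of which Hba-a1 was at 0.

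Members also moved together in gKO replicate 3. Against the mean of the other gKO libraries, 31 of 35 tested ABC genes with counts were lower in it, with a median of -0.50 on the log2 scale, beside 6460 of 12944 genes and a median of 0.00 over all genes. The largest such deficits were those of Abca8a (-2.34), Abca3 (-1.89), Abca5 (-1.46), Abcb1a (-1.33) and Abca9 (-1.32). Those of Abca8a and Abca5 rest on 7 and 27 counts in gKO replicate 3, and Abca8a also had 7 counts in gWT replicate 2. Abcg2 (0.33), Abcc9 (0.21), Abcf3 (0.13) and Abcd2 (0.01) were higher. The ABC transcripts are long, with a median of 5266 bases over these 35 genes against 3431 over all genes. Across the 35 genes, this log2 ratio of gKO replicate 3 over the other gKO libraries had a Spearman correlation of -0.37 with length. Across all 12944 genes the correlation was -0.54. The ratio was thus lower for longer transcripts. Both correlations lie within a single library and are a description only. When each library's trend with length was removed, edgeR called Abcb1a (adjusted p = 0.0488), Abcb9 (adjusted p = 0.0408) and Abcc6 (adjusted p = 0.0438) lower with all 6 libraries, beside 0.849% lower and 0.962% higher among all genes. The ABC genes that this fit called are those called without gKO replicate 3. Abcc6 had counts in gWT alone and so had to differ in both fits.

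**Figure D5:**
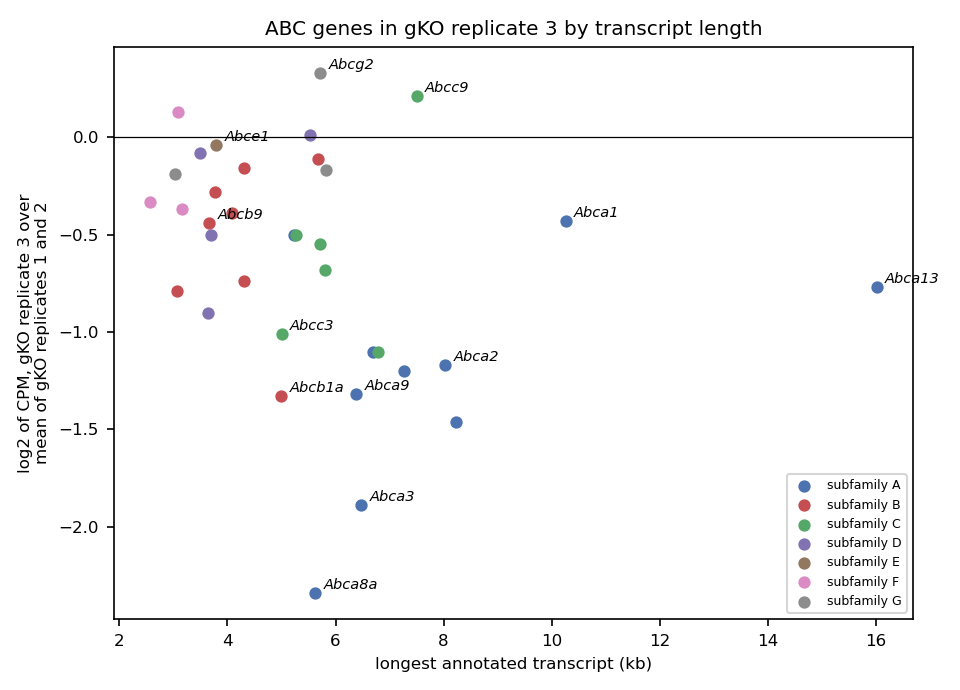
For 35 tested ABC genes, log2 of the CPM in gKO replicate 3 over the mean of gKO replicates 1 and 2, against the length of the longest annotated transcript in kb. 31 of the 35 points lie below 0, and Abca8a and Abca3 lie lowest.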

How the data were processed

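RNA sequencing of 6 libraries of microglia was used, 3 gKO and 3 gWT, grouped by title. The authors deposited expected counts per gene symbol, not normalized, and lists of higher and lower genes with, per the file headers, a mean normalized signal, a log2 fold change, its standard error and a statistic (scores), and p-values. Per the submitters' processing notes, the tools were STAR 2.7.9a, RSEM and DESeq2 and the builds GRCm38 and mm10. For annotation and strand, the setting was not stated. Values that are not whole made up 2.64% to 3.65% of each library.

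After rounding, counts passed edgeR's default filterByExpr filter, TMM scaling and a robust quasi-likelihood test of genotype (edgeR 4.0.16, R 4.3.3), with Benjamini-Hochberg adjustment over 13403 genes and a threshold of 0.05. The SE is the log2 fold change over the square root of F. Lengths, 3′ UTRs and 1-based coordinates come from GENCODE M21 (all 50 symbols matched by name), promoters and microRNAs from RefSeq. No protein sequences were used, so protein features were not analysed here. In 10 simulated draws of gKO against gWT with a median of 13055.5 tested genes and 200 changed genes each, the test recovered 1.34%, 25.0% and 74.5% of changes of 1.5-, 2- and 4-fold, and 6.93% of its calls were false. Simulated counts were drawn for each gene separately, with its spread estimated over all 6 libraries, gKO replicate 3 included. No library was set apart and no trend with length was simulated. Libraries of a genotype differed by more than counting noise (chi-square per degree of freedom from 6.49), so none was treated as a library deposited again. This does not show that they are separate animals.

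The ABC genes that passed the filter are named with values, apart from 2 that are not reported here but enter the counts and medians, and each pathway list gives its 3 smallest p-values. The genes and lists were chosen with earlier results of these data known. Alternatives were RLE and upper-quartile scaling, other filters, DESeq2 1.42.0, voom of limma 3.58.1, the replicate number as a block, the length trend, and each library left out.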

Additional observations from a re-analysis of the deposited data

How the results depend on the processing

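Every ABC call depended on the processing. The 0 higher ABC genes stayed 0 in the 14 other settings tried. The 0 lower became 3 with DESeq2, 3 with the length trend removed, and 0 to 3 when single libraries were left out (3 without gKO replicate 3, 0 without any other). Each time the 3 hold Abcc6, which had counts in gWT alone. Over all genes, the 53 higher and 31 lower became 168 and 223 with DESeq2, 128 and 113 with the length trend removed, and 47 lower without the filter on low counts. Leaving out single libraries gave 0 to 551 higher and 0 to 528 lower, with 0 of each without any 1 gWT library. With the replicate number as a block they became 11 and 7, with 0 ABC genes called. The deviations of same-numbered libraries had correlations of 0.05, -0.05 and 0.02 for the 3 numbers. Of the 3 gKO libraries, 1 correlated best with its own number. With 3 libraries per genotype and gKO replicate 3 far apart, this cannot show whether a number marks a shared animal, litter or day. The causes of these changes were not tested.

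The adjusted p without single libraries ran from 0.00245 to 0.807 for Abcb1a, from 0.0213 to 0.532 for Abcb9 and from 0.0152 to 0.590 for Abcc6, each lowest without gKO replicate 3. Of 36 tested ABC genes, 21 kept their sign in every setting. Under upper-quartile scaling Abca1 turned to -0.02, Abcd2 to -0.005 and Abce1 to -0.03, and with the length trend removed Abcg1 turned to 0.05 and Abcg2 to 0.06. Without single libraries the log2 fold change ran from -0.06 to 0.14 for Abca1, -0.55 to 0.10 for Abca3, -0.38 to 0.07 for Abca7, -0.66 to 0.73 for Abca8a, -0.36 to 0.20 for Abca9, -0.37 to 0.14 for Abcc1, -0.32 to 0.11 for Abcc3, -0.11 to 0.24 for Abcc5, -0.11 to 0.10 for Abce1, -0.10 to 0.06 for Abcf2, -0.09 to 0.08 for Abcf3, -0.09 to 0.01 for Abcg1 and -0.17 to 0.02 for Abcg2. Per coding kb in place of transcript kb, the median gWT level of the 36 genes was 13.5 instead of 10.4 CPM, with a rank correlation of 0.97 between the orders. Depth limits the genes with the lowest counts. In the simulation most 2-fold changes were missed. It held no library set apart and no trend with length, so the share missed in these data may differ.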
